A study of Mus musculus with 5 samples.

Results

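Promoter regions that carried H3K27me3 in the reference line and held no called peak in either inhibitor line were described from 3 lists of called intervals, each from 1 library. All 3 lines were mouse embryonic fibroblasts (MEFs) from 1 embryo with a floxed, undeleted Eed allele, and each was made by stable lentiviral expression of H3.3K27R, H3.3K27M or human EZHIP. H3.3K27R, a histone with arginine in place of the lysine that PRC2 methylates, served as the reference, and its enriched regions are called K27R regions here. H3.3K27M is the glioma histone mutant and EZHIP the ependymoma protein, both inhibitors of PRC2, and their peaks are called residual peaks. The parental line and the Eed deletion line, a single clone, were not analysed here.

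A K27R region was included when it lay on chromosomes 1 to 19, was under 100 kb wide, contained the 5′ end of at least 1 protein-coding gene (its start site) and shared no base with a K27M or EZHIP peak. The rule found 1266 of the 12845 K27R regions, with 1606 start sites. They were 52.2% of the 2423 promoter regions within the same limits, of which 60% held no K27M peak and 62.1% no EZHIP peak. They are called cleared regions, and the 1157 promoter regions of the same width limit and chromosomes that shared a base with a residual peak are called retained regions. The cleared regions were chosen by the absence of peaks in the K27M and EZHIP lists and by width, so that these shares are no result. Cleared means without a called peak, since the lists give positions and no read counts, and a mark on fewer cells cannot be told apart from less of the mark per cell. With 1 library per line there was no replicate error and no test between lines. All values describe these libraries, and intervals are exact 95% intervals for counting error that treat regions or genes as independent.

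PRC2 places H3K27me3 on silent genes in a way that depends on the cell type. It is recruited mainly to CpG islands, stretches rich in the CG dinucleotide, and spreads the mark into the surrounding chromatin when its EED subunit binds existing H3K27me3. Genes without a CpG island can also lie inside such broad domains, among them many genes used by a single differentiated cell type such as receptors of sensory neurons or cytokines.

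The cleared regions were narrower than the retained ones, fewer of them held a CpG island, and their start sites held fewer CG. Gene lists were read among genes with a start site in promoter K27R regions under 100 kb. Chemosensory receptor, interleukin, lectin, and serine protease and serpin genes had high shares of cleared start sites there. Developmental transcription factors had a low share. The sequences before the start sites are shown first, as examples of windows rich and poor in CG. They were picked by island class or by peaks over the start site, so that their CG counts do not compare cleared with retained regions. The 200 bases before the start site are printed in mm9, on the strand of the gene, with every CG in capitals. The widest cleared regions with a CpG island at a start site gave these windows.
Slc12a7 (chr13:73870342-73870541, plus strand): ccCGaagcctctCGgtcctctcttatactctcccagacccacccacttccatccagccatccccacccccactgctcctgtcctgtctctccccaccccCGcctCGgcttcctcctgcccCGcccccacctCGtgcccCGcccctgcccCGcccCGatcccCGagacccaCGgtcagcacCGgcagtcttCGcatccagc
Glul (chr1:155746874-155747073, plus strand): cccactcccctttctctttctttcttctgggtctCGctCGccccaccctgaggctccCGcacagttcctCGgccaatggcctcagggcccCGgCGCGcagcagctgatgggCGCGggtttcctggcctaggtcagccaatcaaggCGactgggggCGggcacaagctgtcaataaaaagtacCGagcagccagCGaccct
Patl1 (chr19:11986689-11986888, plus strand): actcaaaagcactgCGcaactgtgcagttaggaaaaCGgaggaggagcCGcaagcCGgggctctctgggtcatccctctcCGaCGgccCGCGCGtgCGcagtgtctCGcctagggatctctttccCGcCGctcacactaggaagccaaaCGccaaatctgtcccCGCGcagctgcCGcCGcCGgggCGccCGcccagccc
The widest cleared regions with no island gave windows with few CG.
Gpr115 (chr17:42829234-42829433, minus strand): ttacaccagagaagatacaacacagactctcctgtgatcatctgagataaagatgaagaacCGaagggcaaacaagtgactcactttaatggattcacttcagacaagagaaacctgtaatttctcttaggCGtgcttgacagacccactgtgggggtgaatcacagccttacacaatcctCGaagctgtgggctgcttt
Gm10663 (chr8:67598732-67598931, plus strand): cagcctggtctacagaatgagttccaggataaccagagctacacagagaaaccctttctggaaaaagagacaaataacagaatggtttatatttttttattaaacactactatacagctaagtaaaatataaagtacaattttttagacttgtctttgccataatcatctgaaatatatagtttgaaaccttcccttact
Il1f6 (chr2:24070738-24070937, plus strand): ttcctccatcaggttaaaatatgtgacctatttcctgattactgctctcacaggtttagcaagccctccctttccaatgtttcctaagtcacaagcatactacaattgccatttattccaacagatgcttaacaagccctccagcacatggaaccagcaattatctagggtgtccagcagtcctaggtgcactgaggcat
For comparison, these windows came from the widest retained regions in which a K27M and an EZHIP peak both lay over the start site.
Rimkla (chr4:119165234-119165433, minus strand): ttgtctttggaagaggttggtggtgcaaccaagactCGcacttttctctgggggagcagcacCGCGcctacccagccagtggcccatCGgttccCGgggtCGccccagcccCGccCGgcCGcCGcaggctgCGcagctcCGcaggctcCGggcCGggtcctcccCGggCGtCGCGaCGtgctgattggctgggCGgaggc
Camk2b (chr11:5966366-5966565, minus strand): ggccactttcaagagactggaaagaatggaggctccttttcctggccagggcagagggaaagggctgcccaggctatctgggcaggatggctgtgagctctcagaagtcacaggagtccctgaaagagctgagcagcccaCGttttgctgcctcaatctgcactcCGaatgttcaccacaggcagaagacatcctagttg
The windows of the island class held 13, 13 and 21 CG, and those of the class without an island held 3, 0 and 0. Among the retained pair the window of Rimkla held 20 CG and that of Camk2b held 2, so that a start site under residual peaks was not always rich in CG.

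Over all start sites in cleared regions the 200 bases before the start held a median of 3 CG (quartiles 1 and 8; 1606 start sites), against 8 (quartiles 4 and 15.5; 1715) in retained regions and 7 (quartiles 2 and 15; 21418) over all protein-coding genes on these chromosomes. No CG was present in 14.3% of the cleared windows (interval 12.6 to 16.1%), 4.20% of the retained windows (3.30 to 5.26%) and 9.53% of all windows. The ratio of observed to expected CG within 500 bp on either side of the start site had a median of 0.30 in cleared regions (quartiles 0.17 and 0.54), 0.58 in retained regions (quartiles 0.35 and 0.75) and 0.56 over all genes (quartiles 0.23 and 0.77). Cleared start sites were thus poorer in CG than those of genes at large, while retained start sites had a median near that of all genes. A ratio under 0.4 was found at 995 of the cleared start sites (62.0%, interval 59.5 to 64.3%), 509 of the retained ones (29.7%, 27.5 to 31.9%) and 39.6% of all. The cleared group was not uniform, since 314 start sites (19.6%) had a ratio of at least 0.6.

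**Figure D1:**
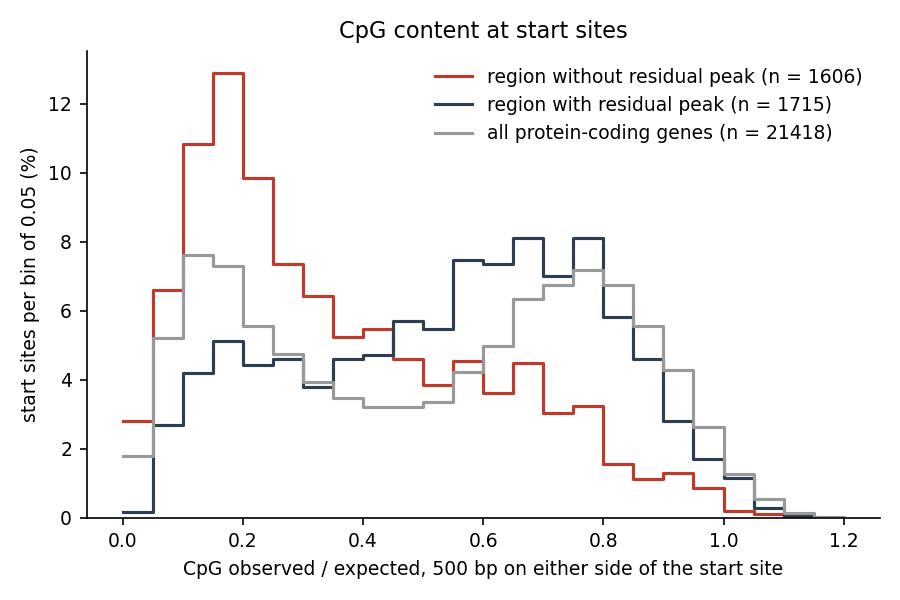
The horizontal axis is the observed to expected CG ratio within 500 bp on either side of the start site, and the vertical axis is the percentage of start sites in each bin of 0.05. Lines stand for start sites in cleared regions (1606), in retained regions (1715) and of all protein-coding genes (21418). The cleared line peaks at low ratios, with a median of 0.30 against 0.58 in retained regions.

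Short promoter motifs were searched in the same windows. GGGCGG or its reverse CCGCCC, the GC box, lay in the 200 bases before 23.9% of cleared start sites (interval 21.8 to 26.1%), 44.1% of retained ones (41.7 to 46.5%) and 38.2% of all. TATAAA or TTTATA, the TATA box letters, lay before 12% of cleared start sites (10.4 to 13.6%), 6.88% of retained ones (5.73 to 8.18%) and 10.1% of all (9.72 to 10.5%, which overlaps the cleared interval). CCAAT or ATTGG lay before 29.5% (27.2 to 31.7%), 25.1% (23.0 to 27.2%) and 30.3% (29.6 to 30.9%). Both strands were searched, each motif was counted on its own, and matches of different motifs may share bases, as ATTGG and GGGCGG can. A match is only a match of letters.

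Cleared regions were narrower than retained ones. The median cleared region spanned 24.0 kb (quartiles 11.6 and 44.55 kb, range 1.2 to 99.6 kb), and together they covered 39.1 Mb. The median retained region spanned 43.4 kb (quartiles 24.0 and 66.4 kb, range 1.6 to 99.8 kb). Among the retained regions the 239 with a K27M peak only had a median of 28.8 kb (interval of the median 24.8 to 32.4 kb), which was closer to the cleared regions (interval 22.0 to 25.8 kb) than the 188 with an EZHIP peak only (45.7 kb, interval 41.6 to 52.2 kb) or the 730 with both (47.0 kb, interval 45.2 to 50 kb). Because a wider region has more bases that a peak can touch, the share cleared was also compared by CpG island within width classes. The CG counts, CG ratios and motifs at start sites were pooled over widths. So was the CG density of whole regions below.

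**Figure D2:**
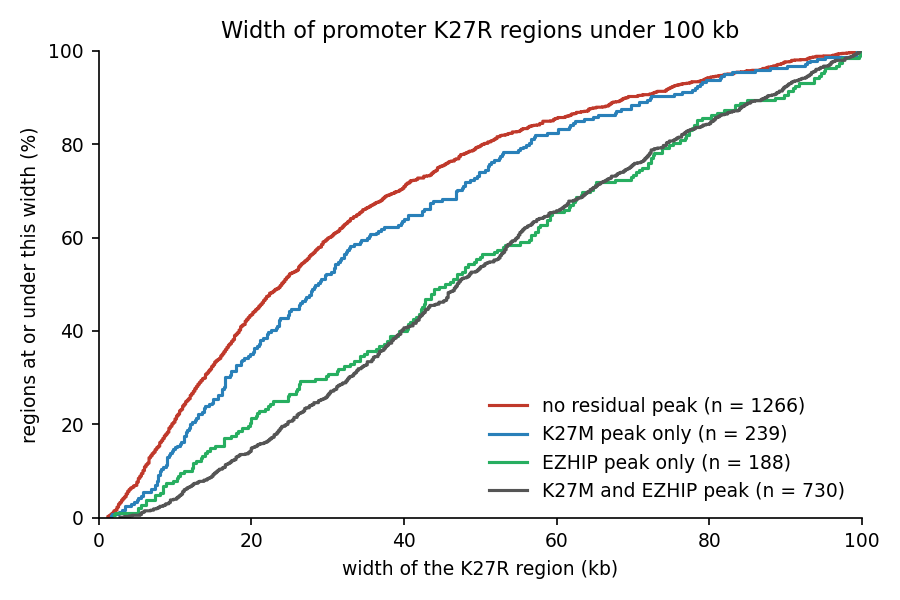
The horizontal axis is the width of the K27R region in kb, and the vertical axis is the percentage of regions at or under this width. Lines stand for promoter regions with no residual peak, a K27M peak only, an EZHIP peak only, or both. The lines of cleared and K27M-only regions (medians 24.0 and 28.8 kb) lie to the left of the EZHIP-only and shared lines (medians 45.7 and 47.0 kb).

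Over K27R regions on chromosomes 1 to 19, 78.9% had no residual peak, and among those under 100 kb 85.4%. The share of 52.2% for promoter regions was less than for regions under 100 kb that overlapped a protein-coding gene without its start site (93.8% of 2433) or overlapped no gene (95.4% of 5927). These shares come from the contrast that defines the cleared regions and are given as background.

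CpG islands were fewer in cleared than in retained regions. An island lay in 539 cleared regions (42.6%, interval 39.8 to 45.4%) and in 1011 retained regions (87.4%, 85.3 to 89.2%). Counting islands of at least 500 bp gave 286 cleared regions (22.6%, 20.3 to 25%) and 815 retained ones (70.4%, 67.7 to 73.1%). An island at a start site was present in 337 cleared regions (26.6%, 24.2 to 29.1%) and 728 retained ones (62.9%, 60.1 to 65.7%). Counted by start site, 359 of 1606 cleared start sites lay in an island (22.4%, 20.3 to 24.5%), 49.5% of the retained ones (47.1 to 51.9%) and 46.8% of all. The cleared regions thus fell into 727 without an island, 202 with an island away from every start site and 337 with an island at a start site, and their median widths were alike, at 24.4, 26.9 and 21.4 kb.

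From 5 kb upwards the share cleared was higher without an island than with one in each width class, with intervals that did not overlap. Of promoter regions of 50 to 100 kb, 162 of 233 without an island were cleared (69.5%, interval 63.2 to 75.4%), 48 of 169 with an island away from start sites (28.4%, 21.7 to 35.8%) and 50 of 345 with an island at a start site (14.5%, 11 to 18.7%). Between 20 and 50 kb these shares were 84.1% of 309, 39.0% of 177 and 31.0% of 416, and between 10 and 20 kb 90.8% of 184, 53.2% of 77 and 46.3% of 175. Under 5 kb 47 of 50 regions without an island were cleared, 17 of 19 with an island away from start sites and 24 of 33 with an island at a start site, and the 3 intervals overlapped (83.5 to 98.7%, 66.9 to 98.7% and 54.5 to 86.7%). The intervals of the 2 island classes were apart from each other only between 50 and 100 kb.

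**Figure D3:**
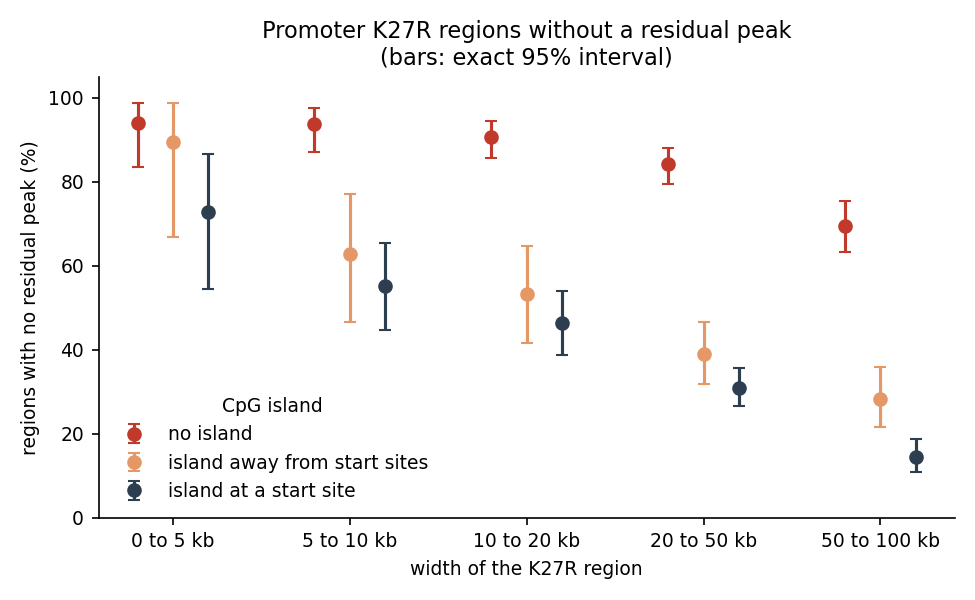
The horizontal axis is the width class of the promoter K27R region, and the vertical axis is the percentage of regions with no residual peak, with exact 95% intervals as bars. Colours stand for regions with no CpG island, with an island away from start sites, or with an island at a start site. Regions without an island lie at 69.5 to 94.0% and those with an island at a start site fall from 72.7% under 5 kb to 14.5% at 50 to 100 kb.

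Where cleared regions did hold islands, the longest island was shorter than in retained regions. The longest island of a cleared region with any had a median length of 527 bp (quartiles 344 and 799 bp; 539 regions), against 839 bp (quartiles 555 and 1234.5 bp; 1011 regions) in retained regions. Retained regions with an island were also wider and held more islands, with a mean of 1.82 against 1.27. Neither these lengths nor the shares by length below were compared within classes of width or island number. Island quality differed little, with median G+C of 68.4% and 68.6% and median observed to expected ratios of 0.84 and 0.85. Of all promoter regions whose longest island was under 500 bp 56.3% were cleared (253 of 449, interval 51.6 to 61.0%). The share was 32.5% (208 of 640) for 500 to 1000 bp, 18.9% (70 of 370) for 1000 to 2000 bp and 8.79% (8 of 91, interval 3.87 to 16.6%) for 2000 bp or more. The CG density of whole regions was compared as well. Among regions with no island, cleared ones had a median of 7.96 CG per kb (quartiles 5.72 and 10.8) and retained ones 9.54 (quartiles 8.11 and 11.1; 146 regions), and among regions with an island the medians were 13.8 and 13.9.

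Most cleared regions held a single gene start. There were 1045 with 1 start site, 156 with 2, 38 with 3 and 27 with more. At least 2 start sites lay in 17.5% of cleared and 30.0% of retained regions. For cleared regions with a lone start site a median of 51.2% of the region lay upstream of the gene (quartiles 27.3 and 74.4%), against 45.5% in retained ones (quartiles 27.6 and 65.2%). The rule places the start site inside the region, and a start site at a random position would give a median at the middle. The cleared value thus shows no preferred side. The start site lay within 1 kb of a region edge for 12.2% of cleared genes (interval 10.6 to 13.9%) and 4.55% of retained genes (3.61 to 5.64%). The genes themselves had median lengths of 14.5 kb in cleared and 15.9 kb in retained regions, and 724 cleared genes (45.1%, interval 42.6 to 47.6%) lay wholly inside the region, against 918 retained genes (53.5%, 51.1 to 55.9%). Cleared regions were narrower, and neither the edge share nor the share wholly inside was compared within width classes. The part of width in these differences was not tested.

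Some genes with a cleared start site held a residual peak elsewhere. Only the 882 genes that extended past their region could hold one, since the rule leaves no peak inside it, and 18 of these did (2.04%, interval 1.21 to 3.21%), 12 with a K27M and 13 with an EZHIP peak. For 7 of these genes, named after their values were seen, the peak covered the start of another protein-coding transcript. They were Adamts20, Caln1, Kcnip1, Kcnn2, Osbp2, Ppp2r2b and Rgs20. The longest gene of the 18 was Kcnma1 (504.5 kb), which encodes a calcium-activated potassium channel and whose cleared region spanned 89.8 kb at the annotated start.

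The 8 widest cleared regions spanned 97.4 to 99.6 kb. The widest of all, 99.6 kb on chromosome 17 from 42779601 to 42879200, covered Gpr115 (ENSMUSG00000023918.6, 42793840 to 42829233) and Gpr111, both adhesion G protein-coupled receptors on the minus strand. It held no island, and the nearest peak was 268.6 kb away in K27M and 270.8 kb in EZHIP. A region of 98.8 kb on chromosome 2 from 24061401 to 24160200 held the interleukin 1 family genes Il1f6, Il1f5 and Il1f10, each wholly inside, with start site ratios of 0.16, 0.06 and 0.18. Another of 98.8 kb on chromosome 6 from 129194001 to 129292800 held Cd69, an activation antigen of lymphocytes, 4922502D21Rik, and the start of Clec12a, a lectin of myeloid cells. None of these 3 regions held an island.

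Of the other 5, 1 held transporter genes. On chromosome 13 from 73790801 to 73889600 (98.8 kb) the region covered Slc6a18 and Slc6a19, amino acid transporters of kidney and gut, and 22.8% of Slc12a7, a potassium chloride cotransporter. The start of Slc12a7 lay in the only island of the region, with a ratio of 0.61 against 0.12 and 0.19 at Slc6a18 and Slc6a19. On chromosome 8 from 67596001 to 67695000 (99.0 kb) a region covered Gm10663 and BC030870. On chromosome 6 from 43085401 to 43183800 (98.4 kb) lay 5 olfactory receptor genes, Olfr237-ps1, Olfr437, Olfr13, Olfr435 and Olfr434, with ratios from 0.03 to 0.14, and the nearest residual peak was 2671 kb away. Klhl6, a gene of B lymphocytes, was alone in a region of 98.0 kb on chromosome 16 from 19936601 to 20034600. Myh11, the smooth muscle myosin heavy chain, filled another of 97.4 kb from 14195801 to 14293200 with 98.8% of its length inside.

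Of the 5 regions with the most start sites, 3 held a named tandem gene family. A region of 94.0 kb on chromosome 14 from 51658401 to 51752400 held 8, among them Rnase9, Rnase11, Rnase12, Rnase4 and Rnase6 of the ribonuclease A family and Ang, encoding angiogenin. Rnase4 and Ang share an annotated start at 51710752. A region of 44.2 kb on chromosome 11 from 99526601 to 99570800 also held 8, namely Krtap4-6, a hair keratin-associated protein gene, and 7 gene models under 1 kb long. The tissue kallikrein gene Klk1 and its relatives Klk1b24, Klk1b3, Klk1b4 and Klk1b5 lay with 2 other gene models in 64.2 kb on chromosome 7 from 51430801 to 51495000, with ratios from 0.03 to 0.09 at the 5 kallikrein start sites. A K27M peak lay 23.6 kb from this region and an EZHIP peak 58.6 kb. On chromosome 18 from 37629201 to 37681800 (52.6 kb) lay 7 genes of the protocadherin beta cluster, adhesion molecules of neurons, from Pcdhb15 to Pcdhb22. This region held 8 islands, none of them at a start site. The region with Glul, encoding glutamine synthetase, on chromosome 1 from 155720801 to 155813800 (93.0 kb) held 6 start sites, and the 2 islands lay at the starts of Glul and 5830403L16Rik.

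Some wide regions were cleared although an island lay at a start site. The widest were those of Slc12a7 and Glul, described above. In the next, of 90.8 kb on chromosome 19 from 11898401 to 11989200, the island start belonged to Patl1, which encodes an mRNA decay factor, and 4 olfactory receptor genes (Olfr1417, Olfr1418, Olfr1419 and Olfr1420) had ratios from 0.14 to 0.17. The Patl1 start had a ratio of 0.93 and lay 2.31 kb from the edge of the region, so that 7.07% of the gene was inside. On chromosome 4 from 52943401 to 53034200 (90.8 kb) an island lay at the start of Nipsnap3b (ratio 0.80) and none at Nipsnap3a or Olfr270.

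Gene lists were then read against the share of 48.4% cleared over all 3321 genes with a start site in promoter K27R regions under 100 kb. Of 35 lists, 25 had at least 10 such genes. The interval of the share lay wholly above 48.4% for 6 lists, wholly below for 3 and included it for 16. Genes of a list often share a region, as the 89 cleared olfactory receptor genes did in 60 regions, and the intervals are then too narrow. Of the 30 cleared cadherin and protocadherin genes, which lay in 15 regions, 18 stood in 3 regions of the protocadherin beta cluster, so that the share of this list rests largely on 1 locus.

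The 6 lists with higher shares were chemosensory receptors, secreted or surface proteins of immune cells, serine proteases and serpins, and adhesion molecules. Vomeronasal and taste receptors were cleared for 39 of 40 genes (97.5%, interval 86.8 to 99.9%) and olfactory receptors for 89 of 98 (90.8%, 83.3 to 95.7%). C-type lectins followed with 9 of 10 (90.0%, 55.5 to 99.7%), serine proteases and serpins with 22 of 25 (88.0%, 68.8 to 97.5%), interleukins and their receptors with 16 of 19 (84.2%, 60.4 to 96.6%), and cadherins and protocadherins with 30 of 36 (83.3%, 67.2 to 93.6%). Cleared start sites of these lists seldom lay in an island, with 0 of 89 olfactory receptor, 0 of 39 vomeronasal and taste receptor, 0 of 9 lectin, 1 of 22 protease and serpin, 1 of 16 interleukin and 4 of 30 cadherin start sites.

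Because islands went with retention, the lists were also read among genes in regions with no island, where 890 of 1123 genes were cleared (79.3%, interval 76.8 to 81.6%). There, 69 of 73 olfactory receptors (94.5%, 86.6 to 98.5%) and 32 of 32 vomeronasal and taste receptors (interval from 89.1%) were cleared, and their intervals lay above that of all such genes. For 17 of 17 serine proteases and serpins (interval from 80.5%), 11 of 11 interleukin genes (from 71.5%) and 8 of 8 lectins (from 63.1%) they overlapped it. Of the 36 cadherin genes 32 lay in regions that held an island, and 26 of these 32 were cleared (81.3%, 63.6 to 92.8%), against 716 of 2198 over all genes in such regions (32.6%, 30.6 to 34.6%).

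**Figure D4:**
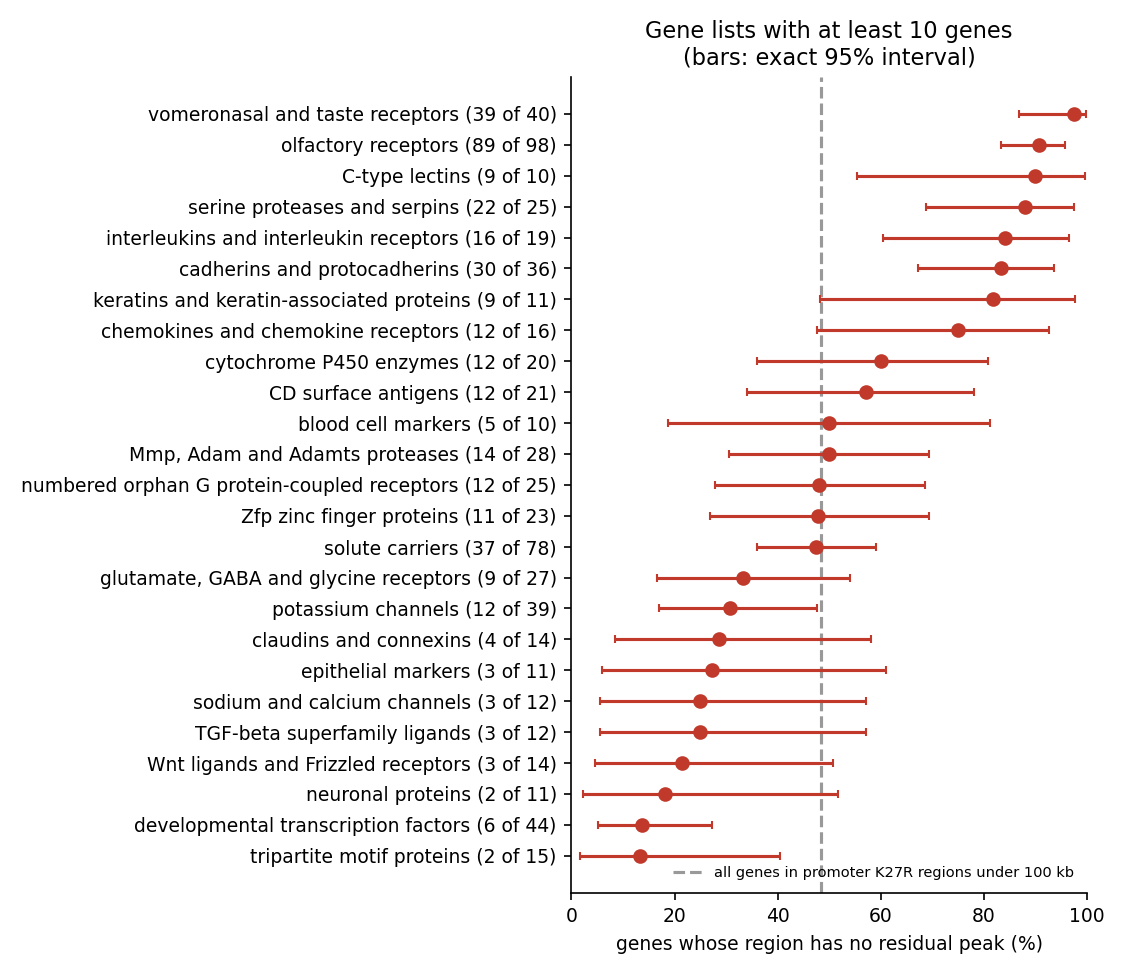
The horizontal axis is the percentage of genes whose region has no residual peak, among genes with a start site in promoter K27R regions under 100 kb, for the 25 lists with at least 10 such genes. Points are shares, bars exact 95% intervals, and the dashed line is 48.4%, the share over all genes. Chemosensory receptors lie at 90.8 and 97.5% and developmental transcription factors at 13.6%.

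Among the receptor genes the widest cleared regions were those with Olfr434 to Olfr437, with Olfr371 (95 kb, chromosome 8) and with Olfr750, which shares the ribonuclease region. For the vomeronasal and taste receptors they held Vmn1r234, Vmn1r235 and Vmn1r236 (97.0 kb, chromosome 17), the bitter taste receptor gene Tas2r144 (85.6 kb, chromosome 6) and Vmn2r7 (73.2 kb, chromosome 3). Start site ratios of the Vmn1r genes were 0.12, 0.19 and 0.07.

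Among cytokine genes, Il2ra, which encodes the alpha chain of the interleukin 2 receptor, lay wholly inside a region of 87.8 kb on chromosome 2 from 11527801 to 11615600. Il16 had 10.9% of its length in a region of 72.2 kb. Il2 (54.2 kb), Il4 and Il13 (both in 32.0 kb) and Il5 (17.8 kb), cytokines of T lymphocytes singled out after their values were seen, were cleared as well. Chemokines and their receptors were cleared for 12 of 16 genes (75%, interval 47.6 to 92.7%). The widest regions held Ccl26 and Ccl24 (87.6 kb, chromosome 5), Cx3cr1 and Ccr8 (75.8 kb, chromosome 9) and Cxcl13 (30.6 kb, chromosome 5), chemokines of eosinophil and lymphocyte attraction and receptors of myeloid and T cells. CD antigens stood at 12 of 21 (57.1%, 34.0 to 78.2%), with Cd69, Cd1d1 (77.6 kb) and Cd209a (69.4 kb) in the widest regions. The C-type lectins Clec12b, Clec1b and Clec9a shared 57.8 kb on chromosome 6 from 129307401 to 129365200, next to the Cd69 region. Of a list of blood cell markers 5 of 10 were cleared, among them Itgax, an integrin of dendritic cells (49.4 kb), Ms4a1, a B cell antigen (33.4 kb), and Cd4 (29.4 kb).

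Of a list of liver secretory proteins 6 of 8 genes were cleared (75%, interval 34.9 to 96.8%, which includes the background share), 4 of them in 1 region. This region of 85.0 kb on chromosome 9 from 45997001 to 46082000 held the apolipoprotein genes Apoa1, Apoc3, Apoa4 and Apoa5, each wholly inside with ratios from 0.12 to 0.18, together with the start of Zfp259. Ttr, the thyroxine carrier transthyretin (47.4 kb, chromosome 18), and Cfi, complement factor I (44.2 kb, chromosome 3), were the other cleared genes of this list. The protease inhibitor genes Serpina1b and Serpina1d shared 74.4 kb on chromosome 12, and Serping1, the complement C1 inhibitor gene, lay in 62.0 kb on chromosome 2. Cytochrome P450 enzymes were cleared for 12 of 20 genes (60%, interval 36.1 to 80.9%). The widest of these regions held Cyp2r1, a vitamin D hydroxylase with an island at its start (56.4 kb), Cyp2c65 (42.6 kb) and Cyp4f14 (41.0 kb). Solute carriers, at 37 of 78 (47.4%, 36.0 to 59.1%), were near the background share. The widest of their regions, beside that of Slc6a19, held Slc22a14 (91.2 kb) and the cystine transporter gene Slc7a9 (89.8 kb).

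Among cadherins and protocadherins, the widest cleared regions held Cdh5, the endothelial cadherin, with 6.71% of its length in 69.0 kb on chromosome 8 from 106559401 to 106628400, and the protocadherin beta genes Pcdhb2 to Pcdhb7 in 64.0 kb on chromosome 18. Cdh1, the epithelial cadherin, was cleared in 7.6 kb on chromosome 8 from 109123401 to 109131000, with an island at its start and a ratio of 0.72. Esrp2, an epithelial splicing regulator (9.6 kb), and Spint2, a protease inhibitor of epithelia (5.2 kb), were the other cleared genes of a list of epithelial markers, 3 of 11, and each had an island at its start. Keratins and keratin-associated proteins were cleared for 9 of 11 genes, with Krt23 and Krt39 in 50.4 kb and Krtap4-16 and Krtap9-1 in 45.6 kb on chromosome 11, while a further 52 genes of this list lay in K27R regions of 100 kb or more. Mmp, Adam and Adamts proteases stood at 14 of 28. Mmp3 and Mmp1a, proteases that degrade matrix, shared 42.6 kb, and Adam3 and Adam7, of sperm and epididymis, lay in 79.8 and 51.0 kb.

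The 3 lists below the background share were developmental transcription factors, tripartite motif proteins and potassium channels. Developmental transcription factors were cleared for 6 of 44 genes (13.6%, interval 5.17 to 27.4%), and 104 more of them lay in K27R regions of 100 kb or more. In the widest regions these were Sox30, a factor of spermatids (68.4 kb), and the pituitary factors Pou1f1 (61.8 kb) and Tbx19 (59.6 kb). Neurod4 (26.2 kb), Sox5 (21.0 kb) and Hoxb1 (10.0 kb) were the others, named after their values were seen. Sox30 and Sox5 had an island at the start site and the other 4 did not. Tripartite motif proteins stood at 2 of 15 (13.3%, 1.66 to 40.5%) and potassium channels at 12 of 39 (30.8%, 17 to 47.6%). Beside Kcnma1, the widest potassium channel regions held Kcne1 (67.2 kb) and Kcnj15 (50.6 kb). With an island in the region 32.6% of all genes were cleared, and without one 79.3%. Developmental transcription factors stayed below with an island (4 of 41, interval 2.72 to 23.1%), with 2 of 3 cleared without one. Tripartite motif proteins stayed below without an island (2 of 9, 2.81 to 60.01%). With one, their interval included 32.6% (0 of 6, up to 45.9%). For potassium channels both intervals included these shares (5 of 28, 6.06 to 36.9%, and 7 of 11, 30.8 to 89.1%).

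Lists of signalling ligands, channels and cell type markers had intervals that included the background share of 48.4%, or fewer than 10 genes. Wnt ligands and Frizzled receptors were cleared for 3 of 14 genes (21.4%, interval 4.66 to 50.8%), Wnt16, Wnt2 and Fzd10, in regions of 11.4 to 13.4 kb. TGF-beta ligands were cleared for 3 of 12 (25%, 5.49 to 57.2%), namely Bmp5 (66.8 kb), Bmp6 (17.8 kb) and Gdf3 (6.8 kb), claudins and connexins for 4 of 14 (28.6%, 8.39 to 58.1%), with Gja10, Cldn1 and Cldn11 in 21.4 to 10.6 kb, and collagens for 2 of 8 (25%, 3.19 to 65.1%). For Fgf ligands and for striated muscle proteins 0 of 5 were cleared (interval up to 52.2% for each). Receptors of glutamate, GABA and glycine stood at 9 of 27 (33.3%, 16.5 to 54.0%), led by Gabrr3 (67 kb) and then by Grin2b and Gria1, whose regions of 17.8 and 17 kb covered 1.16% and 4.80% of these long genes. Sodium and calcium channels stood at 3 of 12 (25%, 5.49 to 57.2%), namely Scn2a1, Cacnb4 and Scn1a (52.2, 37.2 and 3.6 kb), neuronal proteins at 2 of 11 (18.2%, 2.28 to 51.8%) and endothelial markers at 1 of 7 (14.3%, 0.36 to 57.9%). Zfp proteins (11 of 23, with Zfp259, Zfp648 and Zfp964 in the widest regions) and numbered orphan receptors (12 of 25, with Gpr84 and Gpr158 after Gpr115 and Gpr111) were near the background, and 1 of 1 sperm and testis gene was cleared. No promoter region under 100 kb on chromosomes 1 to 19 held the start of an annexin, an S100 protein or a gene from the list used in every cell.

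Fibroblast markers served as a check of the cell type, and expression was not measured here. Of 16 fibroblast marker genes 1 had a start site in a K27R region, Pdgfra, in a retained region. No fibroblast marker lay in a cleared region. Of 10 genes used in every cell 1 also had a start site in a K27R region, Hprt on chromosome X, so that the check does not single out fibroblasts.

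The median distance from a cleared region to the nearest residual peak was 285.4 kb (quartiles 107.5 and 675.2 kb), with 371.2 kb to the nearest K27M peak and 326.7 kb to the nearest EZHIP peak. The K27M list held 3736 peaks and the EZHIP list 4992, and the part of peak number in these distances was not tested. No cleared region lay within 10 kb of a residual peak, 139 lay within 50 kb (11%, interval 9.31 to 12.8%), 296 within 100 kb (23.4%, 21.1 to 25.8%) and 1049 within 1000 kb (82.9%). The peak calling of the study used a maximum gap of 10000 bp. The deposited K27R regions were not all joined at that distance, since the shortest gap from a cleared region to another K27R region was 0 kb. The cause of the absence of residual peaks within 10 kb was not tested. The nearest peak was in the K27M list for 671 regions, in the EZHIP list for 555 and at an equal distance in both for 40. The nearest cases were Irg1, which makes itaconate in macrophages, on chromosome 14 from 103403401 to 103461600 (12.4 kb to a K27M peak, 22.0 kb to an EZHIP peak), and the lung surfactant gene Sftpc with Lgi3 (13.6 and 62.4 kb). Ern2, a stress sensor of gut epithelium, lay 15.4 kb from an EZHIP peak and 439.2 kb from a K27M peak, and Fcer2a, Clec4g and Cd209a lay 17.8 and 53.6 kb from them. The 4 farthest regions all lay on chromosome 3, with Clca2, Clca3, the interferon-induced Gbp1 and Col24a1, between 7681 and 8151 kb from any residual peak.

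**Figure D5:**
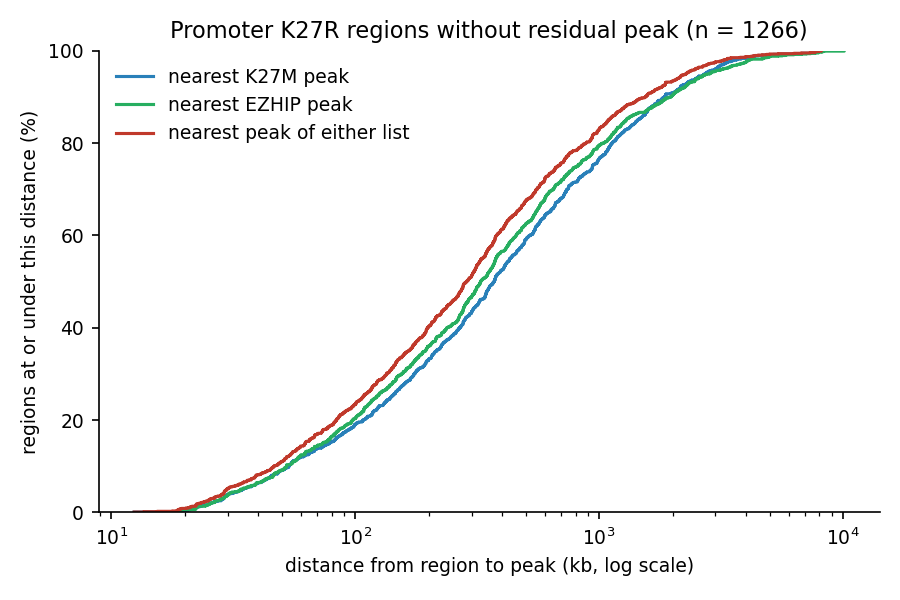
The horizontal axis is the distance from a cleared region to a peak in kb on a log scale, and the vertical axis is the percentage of the 1266 cleared regions at or under this distance. Lines stand for the nearest K27M peak, the nearest EZHIP peak and the nearest of either list. The medians are 371.2, 326.7 and 285.4 kb, and the shortest distance is 12.4 kb.

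Cleared regions nevertheless stood among other K27R regions. The nearest other K27R region lay at a median of 23.6 kb (quartiles 13.2 and 64.25 kb), and it held a residual peak for 298 of 1266 cleared regions (23.5%, interval 21.2 to 26.0%). For retained regions it held one in 32.7% (30.0 to 35.5%), and over all K27R regions on these chromosomes in 20% (19.3 to 20.7%). Within 500 kb there were a median of 7 other K27R regions around cleared and 6 around retained ones. At least 1 of these held a residual peak for 69.1% of cleared regions (66.5 to 71.7%) and 76.0% of retained ones (73.4 to 78.4%).

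The cases at the limits of the rule were as follows. The widest cleared regions were 99.6, 99.0 and 98.8 kb, described above, and just outside the limit stood regions without a residual peak over Abtb1 and Podxl2 (100 kb, chromosome 6), Atp2c1 (100 kb, chromosome 9) and Gm5908 (100.4 kb, chromosome 8). Without the limit a further 155 of 1014 promoter regions of 100 kb or more had no residual peak (15.3%). The retained regions with the least residual cover held 0.8 kb of EZHIP peak (2610019F03Rik, chromosome 8), 1.2 kb (Slc40a1, chromosome 1) and 1.2 kb (Pm20d1, chromosome 1), and none of the 3 held a K27M peak.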

How the data were processed

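H3K27me3 was measured by ChIP-Seq in crosslinked, MNase-digested chromatin. By the study's methods and the labels, the authors aligned reads with Bowtie 1.0.0 to mm9 and to a spike-in genome. Broad peaks were called in each library with MOSAiCS-HMM, with a maximum gap of 10000 bp. Whether the spike-in scaling entered the calls is not given in the sources used here. The deposited K27R list is named as enriched regions and the K27M and EZHIP lists as peaks. Whether these names stand for different calling settings is not given in the sources used here, so that unlike lists may have part in what is called cleared. The deposited lists hold start and end positions only, so that depth is unknown. Positions lie on 200 bp bins and are printed counting from 1.

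Genes were the 22350 protein-coding records of GENCODE vM1 (mm9), the start site being the 5′ end of the record. For CpG islands (27117), each CG scored 17 and every other base -1, and maximal segments over 200 bp were kept if G+C reached 50% and observed over expected CG exceeded 0.6. Repeats were not masked. Overlap meant at least 1 shared base. Shares have exact Clopper-Pearson 95% intervals and medians order-statistic intervals. No test was run, since each line had 1 library. Versions were scipy 1.17.1, pandas 2.3.3 and numpy 2.4.6 under Python 3.11.15. The interval tools and island finder were tested on simulated data.

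The regions and gene lists were chosen with earlier results of these data known. Lists were defined by symbol pattern or by name. Named regions were the 8 widest, the 5 with most start sites, the 4 nearest to and 4 farthest from a residual peak, the 4 widest with and without an island, the 3 widest for each list with at least 3 cleared genes, and those at the limits of the rule. Windows printed as sequence overlap no annotated exon and lie outside chromosome 18. Alternatives are given in the closing section.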

Additional observations from a re-analysis of the deposited data

How the results depend on the processing

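The number of cleared regions stayed between 1006 and 1442 over 10 alternatives, of which counting peaks within 50000 bp was chosen after the data were examined. Counting peaks within 1000 or 10000 bp changed no region, since the shortest distance from a cleared region to a residual peak was 12.4 kb. The share of promoter regions cleared was 55.8% with residual peaks of at least 2000 bp only, 60.02% with widths below 50000 bp, 41.3% with no limit on width, 54.4% with the start sites of all protein-coding transcripts, 49.6% with start sites at least 1000 bp inside the region and 46.5% with peaks within 50000 bp counted. The median width was 18.4 kb below 50000 bp, 27.8 kb with no limit, 27.2 kb with start sites at least 1000 bp inside, and the mean was 30.9 kb. The share of cleared regions with an island was 39.3% with all transcript starts and 22.6% for islands of at least 500 bp. The share with an island at a start site was 35.3% within 1000 bp of the start and 16.7% for islands of at least 500 bp. The median ratio at start sites was 0.33 below 50000 bp and 0.27 with no limit. The median distance to a residual peak was 260.1 kb with peaks of at least 2000 bp, 340.4 kb with peaks within 50000 bp counted, 371.2 kb for K27M alone and 326.7 kb for EZHIP alone. The cause of these shifts was not tested. Under each of the 10 alternatives, which redefine the regions, cleared regions were narrower and held islands less often than retained ones.

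Below 50000 bp the count of cleared genes fell in 11 gene lists by more than 1.5 times, to 59 olfactory receptors and 8 interleukin genes for example, since wide regions then leave. Between 13 and 16 of the lists had a cleared share above that of all genes in every alternative, against 14 as reported. No paired analysis was possible because each line had 1 library. The absence of a called peak at unknown depth does not show that H3K27me3 was absent.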

Other observations

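Other annotated genes also started in promoter K27R regions under 100 kb, and no test against protein-coding genes was run. Long intergenic RNA genes started in cleared regions in 35 of 128 cases (27.3%, interval 19.8 to 35.9%) and processed transcripts in 55 of 182 (30.2%, 23.6 to 37.5%), against 48.4% of protein-coding genes. The intervals for miRNA genes (30 of 79, 38.0%, 27.3 to 49.6%), snoRNA genes (16 of 37, 43.2%, 27.1 to 60.5%) and pseudogenes (108 of 234, 46.2%, 39.6 to 52.8%) included 48.4%.

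The share cleared was also counted by chromosome. Of promoter regions, 67% were cleared on chromosome 14 (59 of 88, interval 56.2 to 76.7%), 65.4% on chromosome 6 (100 of 153) and 65.0% on chromosome 16 (65 of 100), against 38.0% on chromosome 15 (35 of 92, 28.1 to 48.8%) and 40% on chromosome 12 (36 of 90). These were the ends of 19 values chosen after they were seen, and each line had 1 library.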
